A study of Rattus norvegicus with 20 samples.

Results

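Neonatal rat cardiomyocyte cultures that had spent 72 h in 1 µM doxorubicin were compared with cultures kept for the same time in phosphate-buffered saline (PBS). The comparison took 5 doxorubicin and 5 PBS libraries, 10 of the 20 in the series, chosen by the library names in the sample descriptions. None of these 10 cultures received histidine. The remaining 10 libraries had 100 nM histidine, with or without the same dose of doxorubicin, and served here to estimate the spread between libraries and, at the end, as a separate look at the drug. The labels name the cell type but not the culture from which each library came. All p-values therefore measure the spread between these libraries, which may be technical.

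Doxorubicin is an anthracycline that slides between DNA bases and holds type II topoisomerases on cut DNA. It also cycles electrons onto oxygen, and injury to the heart limits its use in cancer treatment. Cells answer broken DNA by arresting division, and answer oxidants and foreign compounds by making detoxifying enzymes and export pumps. Cells isolated from the newborn heart hold cardiomyocytes together with fibroblasts, endothelial cells, mesothelial cells and macrophages, and a bulk library averages over all of them.

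Each library held between 54072746 and 83624651 reads assigned to genes. Of the 15503 genes in the deposited table, 15449 had enough reads to be tested. Markers of more than one cell type were present in the PBS cultures. FPKM values, which scale fragments by transcript length and library size and so compare genes per length, averaged 109.7 for cardiac troponin T (Tnnt2) and 27.6 for the heavy chain Myh6, against 6671 for the fibroblast collagen Col1a1 and 538 for the macrophage lysozyme Lyz2. Over the 12 measured cardiomyocyte markers, the summed level in CPM, reads scaled by the size of each library, lay between 764 and 883 in the PBS libraries and between 136 and 246 in the doxorubicin libraries. The 10 measured leukocyte markers summed to 2935 to 3120 CPM with PBS and to 192 to 322 CPM with doxorubicin. In bulk RNA, fewer cells of a type and less RNA per cell cannot be told apart.

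One library stood apart from the rest. Doxorubicin replicate 4 held more reads on short transcripts: genes with transcripts under 1000 bases had a median log2 ratio of 0.82 to the other doxorubicin libraries, and genes over 6000 bases one of -0.47. In the 5 PBS libraries no length class departed from the other libraries by more than 0.05 on that scale, and in the other 4 doxorubicin libraries by no more than 0.08. On the second principal component of the 10 libraries, which carried 12.8% of the variance, replicate 4 lay at 94.6 and the other 9 between -29.9 and 6.06. The first component, with 63.3% of the variance, separated the doxorubicin libraries, at 67.9 to 86.2, from the PBS libraries, at -79.4 to -72.2. Values without replicate 4 are given beside many of the results that it moved, but not beside all of them.

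**Figure D1:**
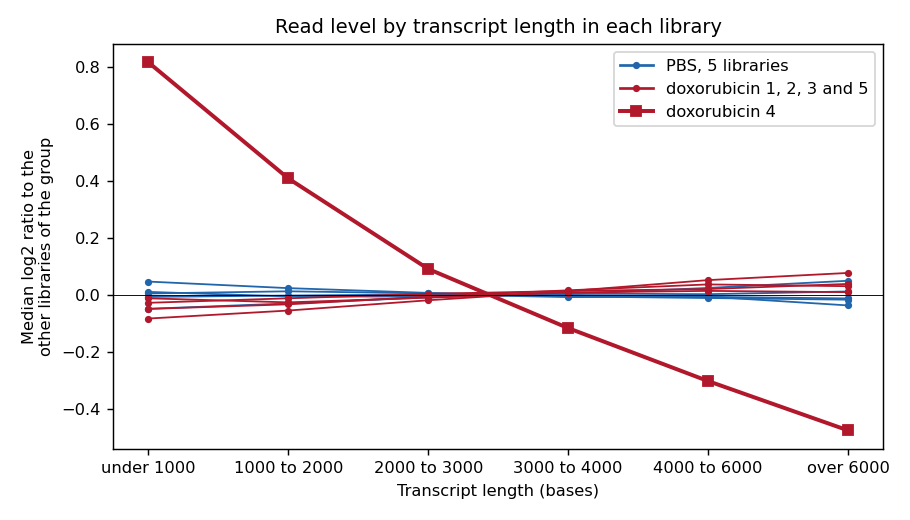
Median log2 ratio of each library to the other libraries of its group (vertical axis), for genes grouped by transcript length in bases (horizontal axis), with 1 line per library. The lines of 9 libraries stay near 0, and that of doxorubicin replicate 4 falls from 0.82 in the shortest class to -0.47 in the longest.

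Doxorubicin changed the level of a large share of the transcriptome. By edgeR's quasi-likelihood test with Benjamini-Hochberg adjustment, 6673 of 15449 genes (43.2%) had an adjusted p under 0.05, of which 3353 (21.7% of those tested) rose and 3320 (21.5%) fell. Without doxorubicin replicate 4 the share was 47.2%, with 22.9% up and 24.4% down. The shares of all genes that rose and fell are the background for every count of list members below. The median log2 fold change over all genes tested was 0.05, and in 4810 genes (31.1%) the 2 groups did not overlap. Large falls outnumbered large rises: 703 genes fell and 445 rose more than 4-fold, and 279 fell and 116 rose more than 16-fold. Genes that fell more than 2-fold took 5.82% of all reads with PBS and 1.48% with doxorubicin, while genes that rose more than 2-fold went from 1.55% to 4.47%.

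Among the abundant genes, those with a mean of at least 100 CPM over the 10 libraries, detoxification and arrest genes headed the rises. The largest was Nqo1, a quinone reductase of the oxidant response. It measured 35.8, 30.3, 38.4, 34.3 and 29.2 CPM in the PBS libraries and 350.4, 405, 612, 442 and 387 CPM in the doxorubicin libraries, a log2 fold change of 3.71 ± 0.16 (SE, adjusted p = 3.47e-13). The groups did not overlap, and the highest doxorubicin value was that of replicate 3. Abcb1b, which encodes a P-glycoprotein pump that exports doxorubicin, followed with 97.6 to 114 CPM under PBS and 658 to 1050 CPM under the drug (log2 fold change 3.11 ± 0.13, adjusted p = 2.92e-13). Its lowest doxorubicin value was that of replicate 4.

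The cell cycle inhibitor Cdkn1a (p21) stood at 146, 161, 176, 159 and 157 CPM with PBS and at 971, 952, 960.3, 1421 and 1048 CPM with doxorubicin, 6.69-fold higher (log2 fold change 2.74 ± 0.11, adjusted p = 1.37e-13). No doxorubicin library came near the PBS group. Others among the 15 largest abundant rises were the epoxide hydrolase Ephx1 (6.09-fold), the glutathione transferase Gsta1 (5.11-fold), the aldo-keto reductase Akr1b8 (5.0-fold), the p53-binding ubiquitin ligase Mdm2 (4.39-fold), the transcription factor Klf4 (4.16-fold), the matrix protein Ecm1 (4.0-fold), the glucosamine pathway enzyme Gfpt2 (3.63-fold) and the steroid dehydrogenase Hsd11b1 (3.59-fold). Secreted factors were in the same group: Pappa, a protease of IGF-binding proteins, rose 4.12-fold, the monocyte attractant Ccl2 3.98-fold and the macrophage growth factor Csf1 3.54-fold. The calcium-binding protein S100a6 rose 3.87-fold, and its log2 fold change went from 1.95 to 1.2 without doxorubicin replicate 4. Leaving out that library also moved Gsta1 from 2.35 to 1.87 and Ccl2 from 1.99 to 1.55 on the log2 scale.

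The 15 largest falls among abundant genes were mostly genes of macrophages and other leukocytes. Fcrl2, an Fc receptor-like protein, went from 381 to 517 CPM in the PBS libraries to 2.45 to 3.8 CPM in the doxorubicin libraries, 168-fold lower. The leukocyte actin-bundling protein Lcp1 fell 149.9-fold, the integrin chains Itgal and Itgb2 123-fold and 37.2-fold, the macrophage receptor Adgre1 (F4/80) 47.8-fold, the lipid amidase Naaa 29.4-fold and lysozyme Lyz2 28.4-fold. Apolipoprotein Apoe, made by macrophages among other cells, fell 5.87-fold from PBS values that ranged from 366 to 916 CPM. Among the genes not known for this lineage were the G-protein regulator Rgs4 (18.6-fold), the proliferation antigen Mki67 (10.2-fold), the DNA topoisomerase Top2a (8.85-fold) and the protease Adamts12 (4.02-fold). The falls of leukocyte genes moved with the summed leukocyte markers given above, and the part of cell numbers in them was not tested. Adgre1 and Lyz2 are themselves among those markers. Their PBS means were 959 and 987 CPM, within a mean sum of 3018 CPM, so for them the likeness is built in.

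**Figure D2:**
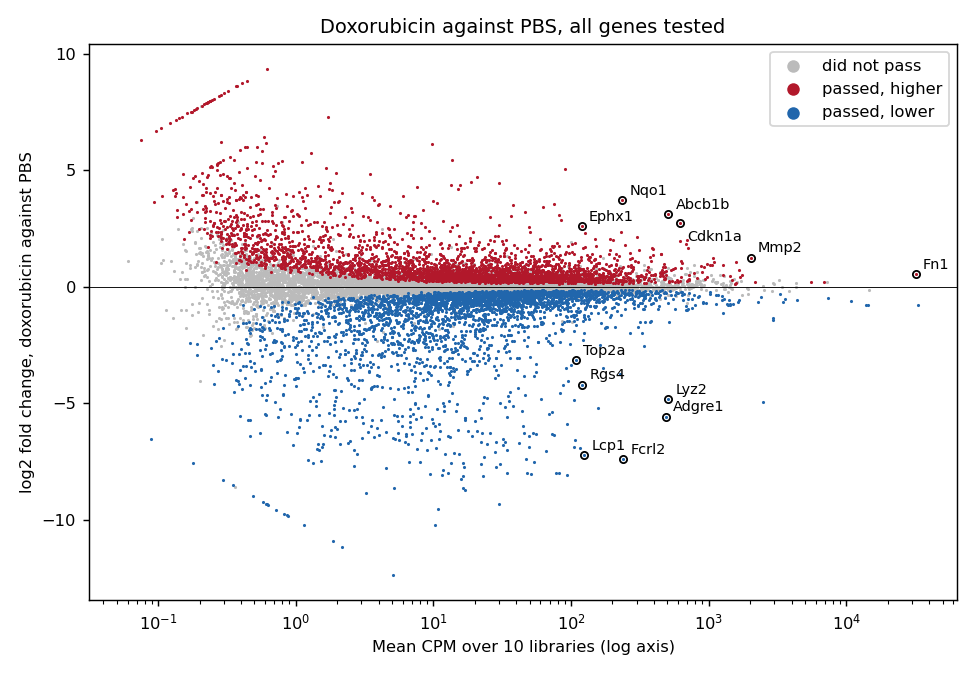
Log2 fold change of doxorubicin against PBS (vertical axis) by mean CPM over the 10 libraries (horizontal log axis), with 1 point per gene tested. Coloured points passed the test, 3353 above and 3320 below, and the named points are abundant genes at the edges, among them Nqo1 at 3.71 and Fcrl2 at -7.4.

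The enzymes that doxorubicin traps both fell, by different amounts. Top2a, the topoisomerase II of dividing cells, measured 197, 195, 183, 188 and 206 CPM with PBS and 17.9, 25.3, 35.8, 8.55 and 22 CPM with the drug. Top2b, the form that non-dividing cells such as cardiomyocytes keep, went from 197 to 226 CPM to 129 to 179 CPM, a log2 fold change of -0.40 ± 0.08 (adjusted p = 5.95e-04). Neither gene's groups overlapped, and Top2a stood lowest in doxorubicin replicate 4. Per length, Top2a and Top2b had a mean FPKM of 31.8 and 31.8 in the PBS cultures and of 3.79 and 24.9 with doxorubicin. Of the 16 measured topoisomerase and adduct repair genes 2 rose and 6 fell. The helicase Blm and its partner Rmi2 fell by 1.85 and 2.11 on the log2 scale, and Sprtn, the protease that clears proteins crosslinked to DNA, rose by 0.34.

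Detoxification enzymes rose in most of their measured members. Of 29 genes for the metabolism of foreign compounds and aldehydes, 20 rose and 2 fell, with a median log2 fold change of 1.19, or 0.91 without replicate 4. The glutathione transferase Gstp1 went from 98.9 to 111 CPM with PBS to 231 to 389 CPM (log2 fold change 1.4), and Ahrr, the repressor of the aryl hydrocarbon receptor, from 0.736 ± 0.216 to 5.98 ± 1.87 CPM (SD, n = 5 libraries each). The opposite course was taken by Akr1c14, a steroid dehydrogenase, which fell by 1.85 on the log2 scale. Thioredoxins, peroxidases and metallothioneins counted 14 rises and 1 fall among 23. The peroxiredoxin Prdx6 (0.66 ± 0.04), catalase Cat (0.67 ± 0.09), the extracellular dismutase Sod3 (0.59 ± 0.09) and thioredoxin reductase Txnrd1 (0.41 ± 0.06) rose on the log2 scale by small amounts with small errors. The single fall was Txnip, the inhibitor of thioredoxin, from 431 to 463 CPM to 172 to 292 CPM. Without doxorubicin replicate 4 this second group had 12 rises and 2 falls.

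With all libraries, export pumps were called at about the shares of all genes, 21.7% up and 21.5% down. The 27 measured ABC transporters held 5 rises and 6 falls. There were 10 rises and 6 falls without replicate 4, where 22.9% of all genes rose and 24.4% fell. Abcb1a, the second rodent P-glycoprotein gene, measured 8.3, 6.61, 9.13, 7.84 and 9.36 CPM with PBS and 58.5, 49.7, 69.1, 25.5 and 56 CPM with doxorubicin, a 6.27-fold rise (adjusted p = 1.75e-09). Abcb4, a phosphatidylcholine floppase of the same family, fell 4.84-fold, from 6.16 to 7.91 CPM to 1.2 to 1.85 CPM. Neither pair of groups overlapped. Abcg1, which exports cholesterol and is abundant in macrophages, fell by 1.1 on the log2 scale. Abcb1a and Abcb1b are similar copies, so reads shared between them could have been split by the authors' counting.

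Genes that pull chromosomes apart fell. All 12 measured mitotic kinesins, the motors of the spindle, fell, with a median log2 fold change of -3.04. Kif20a went from 85.7 to 95 CPM with PBS to 5.63 to 15.4 CPM with the drug, Kif11 from 41.4 to 47.9 to 3.21 to 7.55 CPM, and Kif2c from 30.6 to 34.4 to 1.72 to 3.14 CPM. Of 27 centromere and kinetochore genes 23 fell and none rose (median -1.86), with 1 rise without doxorubicin replicate 4. Cenpf, a kinetochore protein made late in the cycle, measured 84.1, 86.7, 86.7, 82 and 85 CPM with PBS against 5.75, 5.47, 9.76, 3.07 and 5.67 CPM with doxorubicin. Among 22 cohesin and condensin genes 18 fell and none rose: the condensin subunits Smc2 and Ncapd2 fell 2.97-fold and 3.9-fold, and securin, Pttg1, fell 10.4-fold. Doxorubicin replicate 3 held the highest level of Kif20a and Cenpf in its group and replicate 4 the lowest.

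Genes that copy DNA fell as well. Of 40 genes for the replication fork and its licensing 35 fell and 1 rose, with a median of -1.12. The helicase subunits Mcm3 and Mcm5 fell by 1.65 and 2.34 on the log2 scale, the replication factor Mcm10 fell by 2.62 and the primase Prim1 fell by 1.28. Orc4, of the origin recognition complex, was the gene that rose, from 21.6 to 25.6 CPM to 27.9 to 41.7 CPM. Nucleotide supply held 5 rises and 14 falls among 28 genes. Ribonucleotide reductase, which makes the building blocks of DNA, was divided between its subunits. Rrm1 went from 142 ± 2.27 to 51.3 ± 5.74 CPM and Rrm2 from 97.2 ± 3.29 to 18.7 ± 7.78 CPM, while the p53-inducible subunit Rrm2b went from 13.2 ± 1.84 to 20.6 ± 2.12 CPM (SD, n = 5 libraries each, edgeR adjusted p = 5.63e-11, 7.21e-08 and 1.49e-05). Thymidylate synthase, Tyms, rose from 43.3 to 46.9 CPM to 49 to 62.5 CPM.

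The promoters of the mitotic and the replication genes differed in the short sequences they hold. The cell cycle genes homology region (CHR), TTTGAA, is read by the DREAM and MuvB complexes at late cell cycle genes, GCGGGAA is a form of the E2F site found at genes of DNA synthesis, and CCAAT binds NF-Y. RefSeq promoters of the GRCr8 build, from 250 bases before to 50 bases after the start of transcription, were matched to 8150 of the genes tested, and each motif was searched on both strands. The stretches that follow are those of a kinetochore gene and of 2 helicase subunits that fell, shown because they carry motifs named above. Capitals mark CCAAT and its reverse complement in all 3, the CHR in Cenpf and the E2F motif in Mcm3 and, reversed, in Mcm5.
Cenpf, chr13:103760877-103761046, minus strand: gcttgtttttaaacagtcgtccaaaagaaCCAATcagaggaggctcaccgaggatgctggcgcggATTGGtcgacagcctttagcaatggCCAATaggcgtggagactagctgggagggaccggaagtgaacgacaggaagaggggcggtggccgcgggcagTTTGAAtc
Mcm3, chr9:30733737-30733896, minus strand: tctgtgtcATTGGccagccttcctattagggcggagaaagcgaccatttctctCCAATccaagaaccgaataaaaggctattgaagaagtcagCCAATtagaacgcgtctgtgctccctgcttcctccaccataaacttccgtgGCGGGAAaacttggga
Mcm5, chr19:13488663-13488822, plus strand: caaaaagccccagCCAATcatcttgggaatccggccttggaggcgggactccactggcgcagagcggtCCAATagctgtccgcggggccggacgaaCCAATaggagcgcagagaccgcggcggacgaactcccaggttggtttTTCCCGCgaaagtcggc
Each stretch ends 10 bases past the start of transcription and holds 3 copies of CCAAT.

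Over the 54 matched kinesin, kinetochore, cohesin and condensin genes, 26 promoters (48.1%) held TTTGAA, against 12.1% of the 8150 tested genes with a promoter and 18.1% of all 24206 promoters of the reference table. It was in 3 of 35 replication genes (8.57%). GCGGGAA was more frequent than among tested genes in both groups, in 14 of the 35 replication genes and 12 of the 54 mitotic genes, against 8.31% of tested genes and 4.66% of all promoters. CCAAT was found in 28 of the 54 mitotic and 21 of the 35 replication genes, in 37.1% of tested genes and in 37.8% of all promoters. Across the whole comparison the shares were closer: TTTGAA occurred in 21.3% of promoters of genes that fell more than 2-fold and in 14.8% of those that rose more than 2-fold, and GCGGGAA in 10.6% and 6.16%. TATAAA, the TATA box core, was in 11% of the first and 13.6% of the second, against 6.79% of tested genes and 14.3% of all promoters. The core of the antioxidant response element occurred in 8 of 38 xenobiotic and antioxidant genes (21.1%), in 14.5% of tested genes and in 12.2% of all promoters. It was in 14.2% of promoters of genes that rose more than 2-fold and in 12.9% of those that fell more than 2-fold. A match describes the letters in the window and is not a measured binding site.

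Histone chaperones and proteins of the nuclear lamina were among the falls, and histones were mixed. Of 20 measured histone chaperones 12 fell and 1 rose. Hjurp, which loads the centromeric histone, fell by 2.53 on the log2 scale, and Asf1b and the chromatin assembly subunits Chaf1b and Chaf1a had log2 fold changes of -2.29, -1.44 and -1.25. Among 15 genes of the nuclear lamina and the high mobility group 7 fell, with log2 fold changes of -2.19 ± 0.14 for Lmnb1, -1.62 ± 0.09 for Lbr and -1.19 ± 0.12 for Lmnb2, and 1 rose. Lmnb1 measured 34.9, 48.6, 35.3, 33.4 and 47.6 CPM with PBS and 8.39, 8.85, 10.8, 6.98 and 8.81 CPM with doxorubicin, with no overlap. In the list of polycomb repression, DNA methylation and DREAM genes 17 of 27 fell and 1 rose. Uhrf1 and Dnmt1, which copy methylation to new DNA strands, fell 8.35-fold and 2.26-fold, and the late cell cycle activator Mybl2 fell 7.58-fold. The 12 measured histones had 6 rises and 3 falls, and 4 rises and 4 falls without doxorubicin replicate 4. H2ax, whose phosphorylated form marks broken DNA, fell from 79.2 to 96 CPM to 27.2 to 33.5 CPM.

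Regulators of entry into the cycle went both ways, with 8 rises and 7 falls among 19 cyclins of the D and E type, their kinases and inhibitors. Beside Cdkn1a, the p53 target cyclin G1, Ccng1, rose, from 313 to 381 CPM to 888 to 1402 CPM. Cyclin E1 (Ccne1) and its kinase Cdk2 fell 2.19-fold and 2.42-fold. The inhibitor Cdkn2c (p18) fell by 1.87 on the log2 scale.

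**Figure D3:**
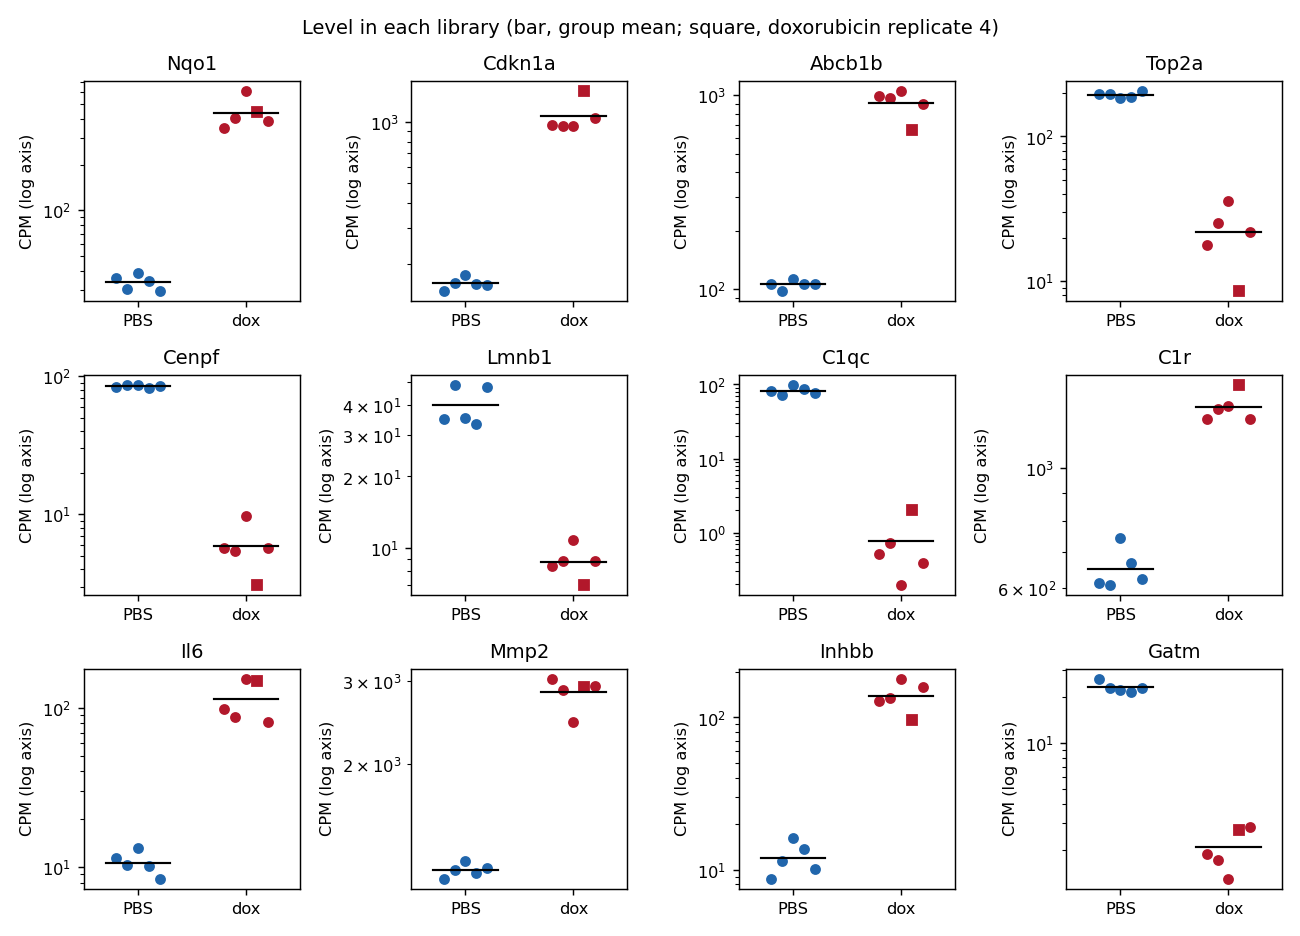
CPM in each of the 10 libraries (vertical log axis) for 12 genes named in the text, with PBS libraries at left and doxorubicin libraries at right in each panel and a bar at the group mean. The groups do not overlap in any panel, and doxorubicin replicate 4, drawn as a square, lies lowest of its group for Abcb1b, Top2a, Cenpf, Lmnb1 and Inhbb.

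Cell death genes were called at about the shares of all genes, 21.7% up and 21.5% down. The BCL2 family held 4 rises and 4 falls among 18. The protective Mcl1 rose from 166 to 176 CPM to 218 to 307 CPM, and the p53-driven killer Bbc3 (PUMA) from a mean of 18 CPM to 23.7 to 64.5 CPM. Bmf, which acts against the protective members, fell 2.38-fold. Among 21 death receptor and TNF pathway genes 7 rose and 6 fell. The receptor Fas went from 25.4 ± 1.6 to 47.5 ± 7.04 CPM and Birc5 (survivin), which also works at the spindle, from 13.6 ± 1.63 to 1.66 ± 0.324 CPM (SD, n = 5 libraries each). Caspases and executioners had 3 rises and 4 falls among 20, and 1 rise without PBS replicate 2, 3 or 5 or without doxorubicin replicate 3. The inflammatory caspase Casp1 fell 3.12-fold and Parp1, a repair enzyme that caspases cut, fell 1.68-fold.

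Complement and Toll-like receptor genes went in both directions. Of 16 complement genes 5 rose and 9 fell. C1qc, a chain of the C1q recognition unit made by macrophages, measured 81.1, 71.5, 98.8, 85.7 and 76.2 CPM with PBS and 0.515, 0.733, 0.196, 2.01 and 0.389 CPM with doxorubicin. Its log2 fold change was -6.73, and -7.52 without doxorubicin replicate 4, its highest library in the group. C1r and C1s, the proteases that C1q activates, rose instead: C1r went from 608 to 742 CPM to 1233 to 1429 CPM and C1s from 760.0 to 1087 CPM to 1618 to 1743 CPM, and the groups did not overlap. Cd55, a membrane inhibitor of complement, rose 3.81-fold. Toll-like receptors and adaptors counted 3 rises and 13 falls among 21: the nucleic acid sensor Tlr7 fell 84.2-fold and its chaperone Unc93b1 fell 4.62-fold, against small rises of the adaptors Irak4 (0.34) and Ticam1 (0.34) on the log2 scale. Without doxorubicin replicate 4 the list had 5 rises.

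Most called genes of the interleukin 1 family and the inflammasome fell. The ligand Il18 fell 44.5-fold, and Il1b went from 28.4 to 44.8 CPM to at most 0.519 CPM (log2 fold change -7.73, or -8.74 without doxorubicin replicate 2), within 11 falls among 18 genes of this family and the inflammasome. The receptor Il1r1 rose from 187 to 208 CPM to 331 to 471 CPM, the decoy receptor Il1r2 rose by 2.19 on the log2 scale, and the pore protein Gsdmd rose 1.69-fold; these were the 3 rises. In the interleukin 6 family 3 of 14 genes rose and 4 fell, against 21.7% and 21.5% of all genes. There were 5 rises without PBS replicate 3 and 6 without doxorubicin replicate 4. Il6 itself measured 11.3, 10.3, 13.2, 10.2 and 8.44 CPM with PBS and 98.7, 88.1, 153, 148 and 81.2 CPM with doxorubicin (log2 fold change 3.41 ± 0.30, edgeR adjusted p = 1.69e-08), and its receptor Il6r fell from 22.9 to 24.3 CPM to 8.73 to 12.4 CPM. Neither gene's groups overlapped.

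Chemokines held 7 rises and 7 falls among 17. Cxcl1, which attracts neutrophils, rose 3.42-fold with the highest value, 631 CPM, in replicate 3. Cxcl13 fell 39.9-fold. Cathepsins, the lysosomal proteases, had 2 rises and 5 falls among 11: Ctss, of antigen-presenting cells, fell 30.3-fold, and Ctsk, which cuts collagen, rose 1.66-fold. All 10 of 10 measured leukocyte markers fell, by a median of 5.28 on the log2 scale, beside the falls in these immune lists. Their part in the falls was not tested.

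Markers of other cell types changed less evenly. Of 16 endothelial markers 5 rose and 7 fell, with 3 rises without PBS replicate 2. The junction protein Esam went from 4.12 to 7.34 CPM to 0.112 to 0.476 CPM, the factor Erg from 2.99 to 3.91 CPM to 0.451 to 1.15 CPM, and the receptor Tek rose from 6.32 to 8.49 CPM to 9.65 to 17.7 CPM. The list summed to 210.4 to 234 CPM with PBS and to 236 to 280.0 CPM with doxorubicin. Among 17 epicardial and mesothelial markers 8 rose and 5 fell. The matrix protein Efemp1 rose from 2.16 to 3.08 CPM to 42.3 to 66.7 CPM and the uroplakin Upk1b from 1.22 to 1.93 CPM to 28.6 to 48.4 CPM, while the cytoskeletal linker Ezr went from 70.9 to 78.7 CPM to 38.9 to 50.8 CPM and the epithelial keratin Krt18 fell 5.25-fold. Their sum was 1004 to 1810 CPM with PBS and 1671 to 2825 CPM with doxorubicin, which overlap, and most of it came from the complement component C3. Fibroblast markers counted 3 rises and 5 falls among 14, against 21.7% and 21.5% of all genes. The scavenger receptor Scara5 rose 2.48-fold and the dipeptidase Dpep1 fell 1.59-fold. The fibroblast list summed to 58330 to 64630 CPM with PBS and to 25250 to 44420 CPM with doxorubicin, while the median log2 fold change of its genes was -0.12. Most of this sum and of its change came from Col1a1, with means of 42010 and 24310 CPM.

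**Figure D4:**
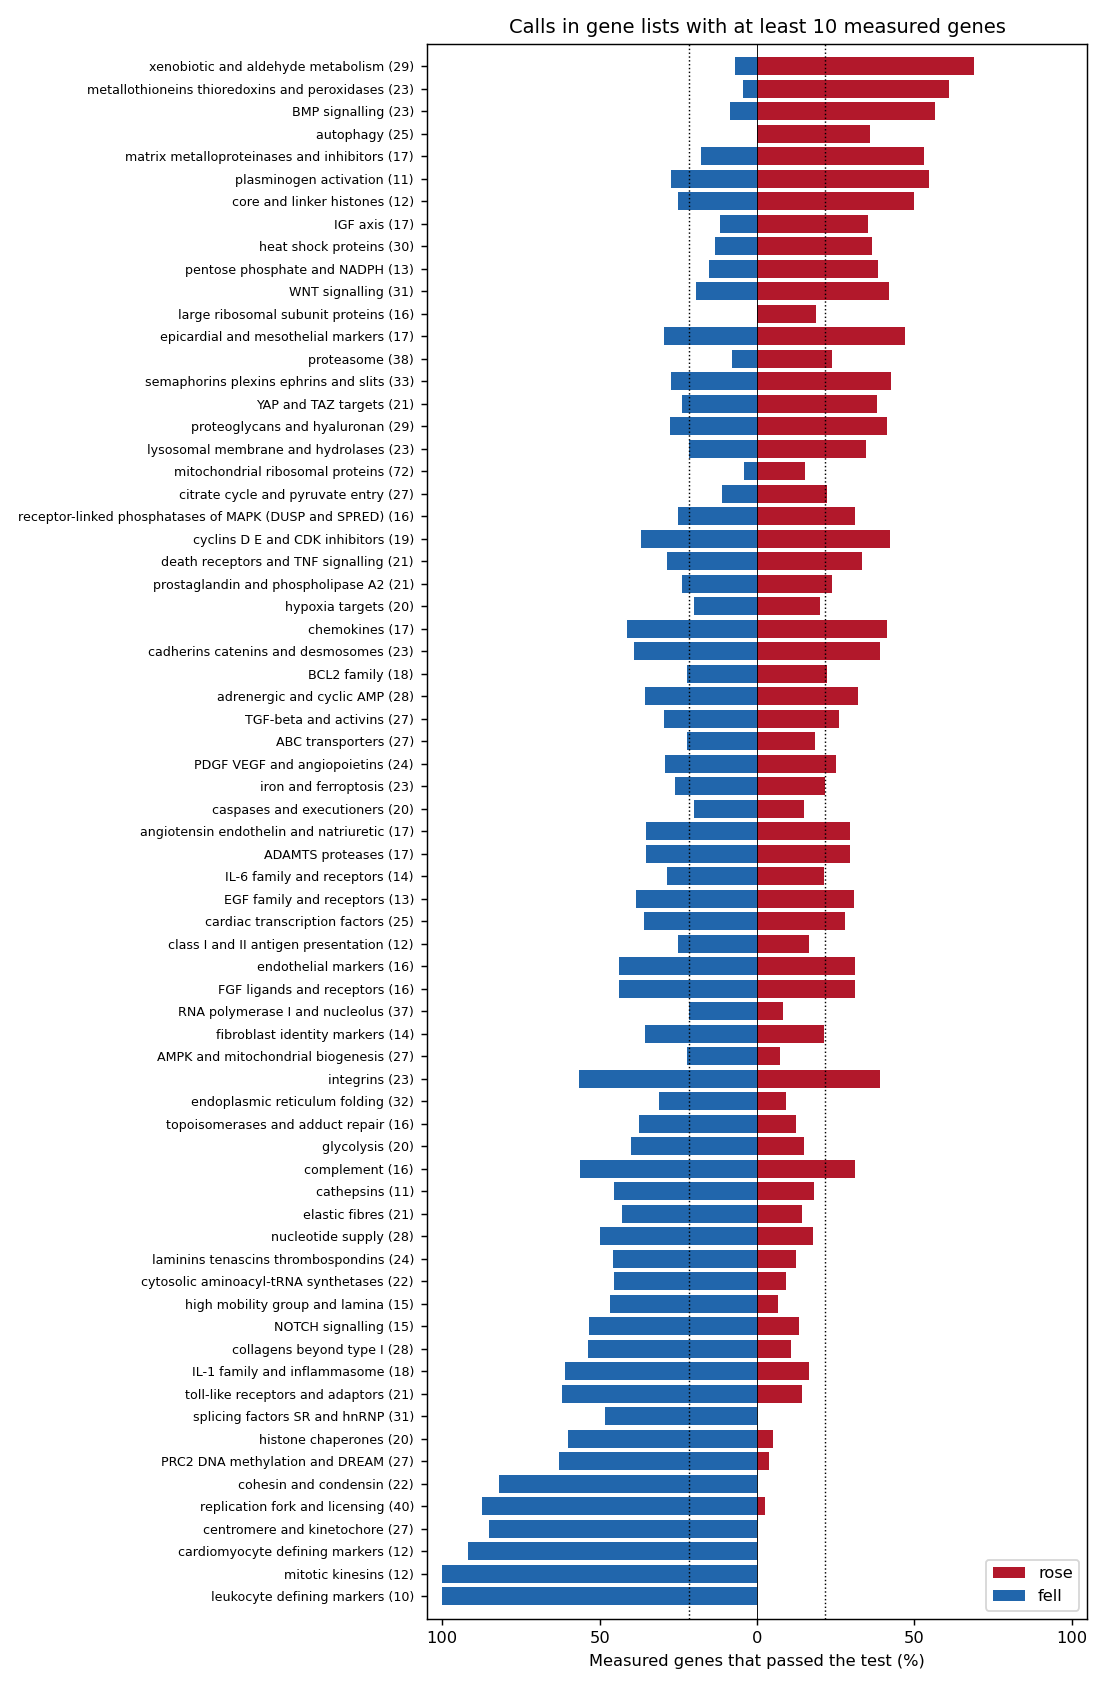
Share of the measured genes of each list (horizontal axis, percent) that passed the test and rose (right) or fell (left) with doxorubicin, with the number of genes measured beside each name. The dotted lines mark 21.7% and 21.5%, the shares of all 15449 genes that rose and fell. The bar of the mitotic kinesins covers all 12 genes on the left.

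Collagens mostly fell and several matrix proteases rose. Of 28 collagens beyond type I, 15 fell and 3 rose. Col11a1 went from 391 to 512 CPM to 84.6 to 221 CPM, Col5a2 from 2746 to 2844 CPM to 1366 to 2096 CPM, and the basement membrane collagen Col18a1 fell by 0.83 on the log2 scale. The doxorubicin range lay below the PBS range for both of the first 2. Col8a1, a short-chain collagen, rose 1.29-fold. Laminins, tenascins and thrombospondins had 11 falls and 3 rises among 24: tenascin C, Tnc, fell from 443 to 568 CPM to 91.1 to 175 CPM, and the nidogens Nid1 and Nid2 fell by 0.74 and 1.03 on the log2 scale. Fibronectin, Fn1, one of the most abundant messages, went the other way, with 23350, 26140, 28640, 26380 and 25210 CPM under PBS and 41840, 39450, 42740, 23750 and 42060 CPM under doxorubicin. Replicate 4 lay within the PBS range and the other 4 above it. In the elastic fibre list 9 of 21 fell and 3 rose, with Fbln5, which assembles elastin, down 3.29-fold and the fibrillin Fbn2 down 4.15-fold. Without doxorubicin replicate 4 there were 5 rises in the laminin list and 6 in the elastic fibre list.

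Matrix metalloproteinases and their inhibitors had 9 rises and 3 falls among 17. The gelatinase Mmp2 measured 1142, 1190, 1246, 1176 and 1203 CPM with PBS and 3031, 2865, 2455, 2906 and 2929 CPM with doxorubicin (log2 fold change 1.25 ± 0.07, edgeR adjusted p = 2.45e-11). Every doxorubicin library lay above every PBS library. Macrophage elastase, Mmp12, fell 6.43-fold. The 17 ADAMTS genes held 5 rises and 6 falls, against 21.7% and 21.5% of all genes. The aggrecanase Adamts5 rose 2.8-fold. Proteins of plasminogen activation counted 6 rises and 3 falls among 11. Their median log2 fold change was 0.63, or 0.27 without doxorubicin replicate 4. Among the falls was urokinase, Plau, 6.22-fold lower. Among 29 proteoglycan and hyaluronan genes 12 rose and 8 fell, with the hyaluronan synthase Has2 and the hyaluronan receptor Cd44 up 2.21-fold and 2.26-fold and the collagen-binding Fmod down 2.86-fold.

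Several secreted regulators of growth factor pathways changed. In the TGF-beta and activin list 7 of 27 rose and 8 fell, against 21.7% and 21.5% of all genes. Inhbb, which encodes the beta chain of activin B, measured 8.7, 11.3, 16.1, 13.7 and 10.03 CPM with PBS and 129, 135, 180.0, 95.6 and 158 CPM with doxorubicin, 11.6-fold higher (edgeR adjusted p = 8.38e-10). The groups did not overlap. Follistatin, Fst, which binds and blocks activins, rose 3.41-fold. The matrix regulators Ccn2 and Ccn1 fell: Ccn2 from 4134 to 4504 CPM to 956 to 1975 CPM and Ccn1 from 626 to 671 CPM to 410.2 to 482 CPM. BMP signalling had 13 rises and 2 falls among 23, with a median of 0.36. Neither fall held without PBS replicate 3, 4 or 5 or without doxorubicin replicate 1, 3 or 5. The BMP-induced inhibitors of differentiation Id1 and Id2 rose 2.18-fold and 2.26-fold, and so did the BMP blockers Chrd (2.5-fold) and Nog, the latter from 0.535 ± 0.175 to 2.85 ± 0.772 CPM (SD, n = 5 libraries each).

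WNT genes counted 13 rises and 6 falls among 31, and 3 falls without PBS replicate 1. Axin2, a feedback target of the pathway, went from 1.47 to 3.13 CPM to 8.43 to 13.1 CPM, 4.7-fold higher. Secreted antagonists split: Dkk3 rose from 205 to 219 CPM to 322 to 371 CPM, and Sfrp1 fell from 55.3 to 61.6 CPM to 24 to 30.6 CPM. NOTCH genes had 2 rises and 8 falls among 15, with the glycosyltransferase Lfng down 4.91-fold and the target Hes1 up 1.53-fold. In the IGF axis 6 of 17 rose and 2 fell: Igfbp4, a substrate of Pappa, rose from 37.1 to 46.5 CPM to 90.3 to 115 CPM, and Irs2, which carries the receptor signal, fell 1.85-fold. Among ligands and receptors of vessel growth 6 of 24 rose and 7 fell, against 21.7% and 21.5% of all genes. The ligand Pdgfc rose 2.2-fold, and the receptor Pdgfrb fell from 859 to 1050 CPM to 419 to 627 CPM. The axon guidance gene Sema6d fell 24.8-fold, from 77.6 to 94.8 CPM to 2.78 to 4.09 CPM, and Epha4 rose 4.26-fold, within 14 rises and 9 falls among 33 genes of guidance.

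Cardiac control genes outside the contractile apparatus were mixed. Of 25 cardiac transcription factors 7 rose and 9 fell, against 21.7% and 21.5% of all genes. Gata4 measured 64, 65.2, 67.5, 70.8 and 65.8 CPM with PBS and 97.1, 107, 99.3, 106 and 103 CPM with doxorubicin, 1.54-fold higher, and Tbx3 and Mef2a rose 2.17-fold and 1.34-fold. The Gata4 groups did not overlap. Myocardin, Myocd, the coactivator of smooth and cardiac muscle genes, fell from 19.2 to 35.3 CPM to 3.75 to 6.99 CPM. The natriuretic peptides fell: Nppb from 24.4 to 33.9 CPM to 5.28 to 13.9 CPM, and Nppa from 136 to 156 CPM to 44.9, 51.6, 34.5 and 42.8 CPM in 4 doxorubicin libraries, with 134 CPM in replicate 4. Without that library the log2 fold change of Nppa went from -1.27 to -1.77. Their clearance receptor Npr3 fell 2.44-fold, while the endothelin receptor Ednra rose 1.64-fold. These changes ran beside the fall of the summed cardiomyocyte markers, whose part in them was not tested. Nppa is itself among those markers.

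Creatine metabolism buffers ATP in heart muscle. In the list of its genes, which also holds the adenylate kinase Ak1, 7 of 8 measured genes changed, with 3 rises and 4 falls. The synthesis enzymes Gatm and Gamt fell 11.1-fold and 1.81-fold, Gatm from 21.5 to 26.4 CPM to 1.3 to 2.83 CPM. The cytosolic kinase Ckb fell from 122 to 137 CPM to 34 to 46.7 CPM. The creatine importer Slc6a8 rose from 38.6 to 45.9 CPM to 79.2 to 100.3 CPM, and the adenylate kinase Ak1 rose by 0.95 on the log2 scale. In the citrate cycle 6 of 27 genes rose and 3 fell, against 21.7% and 21.5% of all genes. Mitochondrial Idh2 fell 2.3-fold and fumarase, Fh, 1.68-fold, while pyruvate carboxylase, Pc, and cytosolic Idh1 rose 1.61-fold and 1.42-fold.

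Genes of RNA and protein handling moved by small amounts. Splicing factors of the SR and hnRNP families had 15 falls and no rise among 31, with a median of -0.19. Hnrnpa1 had the smallest p of them, at 390.5 to 406 CPM with PBS and 262 to 277 CPM with doxorubicin. Folding enzymes of the endoplasmic reticulum fell in 10 and rose in 3 of 32: the chaperone Hspa5 (BiP) went from 942 to 993 CPM to 648 to 762 CPM, and the disulfide isomerase Pdia6 fell 1.45-fold, with 1 rise in the list without PBS replicate 4. Heat shock genes had 11 rises and 4 falls among 30, and 11 and 8 without replicate 4. Bag3, which steers damaged muscle proteins to autophagy, rose 1.61-fold, and the cargo receptor Sqstm1 rose 1.67-fold within 9 rises and no fall among 25 autophagy genes. Without replicate 4 autophagy had 13 rises and 2 falls.

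Lists of short transcripts depended on doxorubicin replicate 4. Of 16 large and 7 small ribosomal subunit genes 3 and 1 rose, and none fell, with median log2 fold changes of 0.30 and 0.48. Without replicate 4 there were 1 rise and 1 fall in the large subunit and 0 rises and 1 fall in the small, with medians of -0.01 and -0.05. The ribosomal protein gene Rpl22l1 measured 87.3, 76.5, 89.8, 81.1 and 84.2 CPM with PBS, 72.1, 84.3, 92.5 and 80.4 CPM in 4 doxorubicin libraries and 602 CPM in replicate 4. Its log2 fold change was 1.15 (edgeR adjusted p = 0.0396) with all libraries and -0.03 (adjusted p = 0.801) without replicate 4. The call was also lost on leaving out any 1 PBS library. Mitochondrial ribosomal proteins had 11 rises and 3 falls among 72, and 5 rises and 10 falls without that library. They had 6 rises and 1 fall without PBS replicate 3. Proteasome subunits had 9 rises and 3 falls among 38, against 7 and 5. Over all genes, transcripts under 1000 bases had a median log2 fold change of 0.30 and transcripts over 6000 bases one of -0.02; without replicate 4 these were -0.03 and 0.05.

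Some genes jumped between libraries of one group. In 48 genes of the PBS group and 50 of the doxorubicin group, neighbouring libraries in order of level differed more than 8-fold. The ratio was taken after adding 0.5 CPM, and the highest library of the group had to exceed 10 CPM. The 2 groups with histidine held 46 and 48 such genes. Of the 78 such genes in either group of this comparison, 4 passed the test. The examples that follow were picked after their values were seen. Gja1, the main gap junction protein of ventricular muscle, measured 309, 9.13, 433, 342 and 328 CPM in the PBS libraries and 480.5, 453, 513, 498 and 463 CPM in the doxorubicin libraries. The fit gave a log2 fold change of 0.76 ± 0.82 (edgeR adjusted p = 0.476), although every doxorubicin library lay above every PBS library. Cav1, of caveolae, was at 12.4 CPM in PBS replicate 5 and at 13.7 and 11.7 CPM in doxorubicin replicates 1 and 2, and between 336 and 570 CPM in the other 7. The angiotensin receptor Agtr1a stood at 144 to 167 CPM with PBS and at 103, 88.1, 0.434, 0.676 and 71.4 CPM with doxorubicin, low in replicates 3 and 4. Slc39a7 alternated with Hsd17b8: it lay between 125 and 201 CPM where Hsd17b8 was between 7.27 and 19.9 CPM, and at most 1.11 CPM where Hsd17b8 was at 136 to 157 CPM. The sum of both was 134 to 158 CPM in 9 libraries and 221 CPM in doxorubicin replicate 4. Both genes lie on the plus strand of chromosome 20 with overlapping spans. Slc39a7 spans bases 4822012 to 4826537 and Hsd17b8 spans 4822026 to 4828742. How reads were divided between them was not tested.

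**Figure D5:**
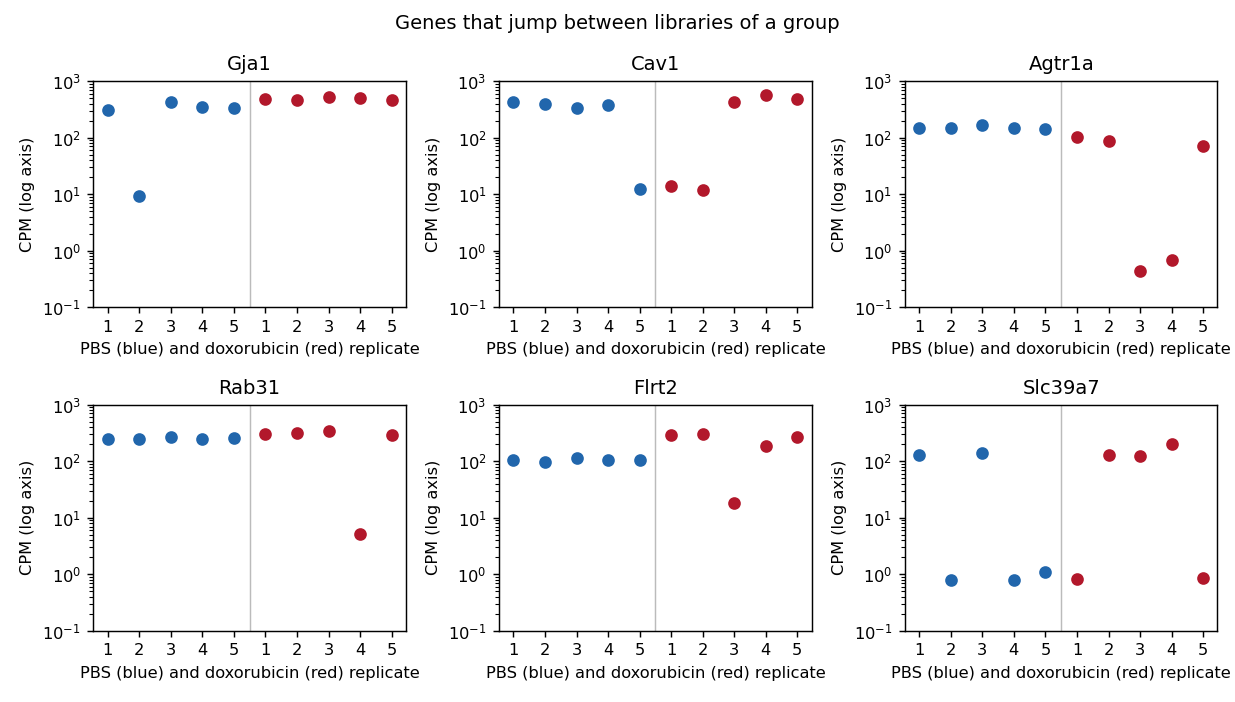
CPM in each of the 10 libraries (vertical log axis) for 6 genes that jump between libraries, ordered PBS 1 to 5 and doxorubicin 1 to 5 (horizontal axis). Gja1 drops to 9.13 CPM in PBS replicate 2 and Rab31 to 5.21 CPM in doxorubicin replicate 4.

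Within the doxorubicin group, 10 genes with at least 50 CPM had the widest gap between one library and its nearest neighbour. Rab31, a membrane traffic protein, was at 5.21 CPM in replicate 4 and at 291 to 343 CPM elsewhere; its log2 fold change was 0.01 (edgeR adjusted p = 0.992) and, without that library, 0.32 (adjusted p = 2.47e-04). Flrt2, an adhesion protein, was at 18.6 CPM in replicate 3 and at 189 to 309 CPM in the others, and Zfand3 was lowest in the same library. The rise of Flrt2 (log2 fold change 1.03, adjusted p = 0.0454) was lost on leaving out any PBS library or doxorubicin replicate 1, 2 or 5. Spin1, Slc25a51, Nbl1 and ENSRNOG00000042668, a methionine sulfoxide reductase, were lowest in replicate 1. ENSRNOG00000005730, a methyltransferase domain protein, was lowest in replicate 4. Both short transcripts among the 10 were highest in replicate 4: ENSRNOG00000034237, the ribosomal protein L39, at 328 CPM beside 37.7, 42.3, 41.2 and 29 CPM, and ENSRNOG00000020296, the ATP synthase subunit DAPIT, at 275 CPM beside 27.4, 36.4, 35.2 and 35.9 CPM. Their log2 fold changes, 1.44 and 1.19, were 0.09 and -0.09 without that library. Over the 100 genes with the widest gaps, replicate 4 was the highest library in 75, of which 44 had transcripts under 1000 bases. The median coefficient of variation over 9461 genes with at least 10 CPM was 6.65% in the PBS group, 15.1% in the doxorubicin group and 7.51% in the doxorubicin group without replicate 4.

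Of 876 long noncoding RNA genes tested, 173 rose and 101 fell (31.3% in all), against 44.3% of 14288 protein-coding genes; the shares were not matched for expression level. By p-value the first was ENSRNOG00000066355, which fell from 4.78 to 0.673 CPM (edgeR adjusted p = 7.19e-09), and the first that rose was ENSRNOG00000069713, from 1.65 to 5.78 CPM. The files give these genes no names. Whether the counting used strand is not given in the sources used here, so reads from an overlapping gene cannot be told apart from theirs.

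The same dose of doxorubicin was also given beside histidine, and those 10 libraries share none with this comparison. There 6206 genes (40.2%) passed the test, 3073 upward (19.9%) and 3133 downward (20.3%). Of the 6673 genes called without histidine, 6513 (97.6%) had the same sign with it. Both tests were passed in the same direction by 4882 genes, which is 73.2% of the first list and 78.7% of the second, and in opposite directions by 2. Nqo1 had log2 fold changes of 3.71 without and 3.3 with histidine, Kif20a of -3.03 and -3.2, Inhbb of 3.54 and 3.09, Gatm of -3.47 and -3.24, and Rpl22l1 of 1.15 and -0.17. The interaction test of edgeR, which asks whether the drug effect differed with histidine, called 0 genes, with 1060 at an unadjusted p under 0.05 and a smallest adjusted p of 0.167; DESeq2 called 16.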

How the data were processed

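RNA sequencing of 20 libraries of neonatal rat cardiomyocytes gave the authors' deposited table of raw read counts and FPKM per gene, per the file headers. FPKM are fragments scaled by the authors for transcript length and library size, and the counts were deposited unscaled. The submitters' processing notes list mRatBN7.2, a rat genome build, and Trimmomatic, with no roles. Which aligner and counter were used is not given in the sources used here. Each column was assigned to its sample through the description, and no other column of sample values was present.

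Symbols were given to 10585 of the 15503 genes through the gene, accession and protein names in the table and RefSeq's gene table, and 440 names shared by several genes were dropped. Counts were fitted with edgeR 4.0.16 (R 4.3.3) over all 20 libraries, with TMM scaling, filterByExpr, the quasi-likelihood F test and Benjamini-Hochberg adjustment over the 15449 genes tested, without a replicate block; a gene was called at an adjusted p under 0.05. CPM values are TMM-normalised. A fold is 2 to the power of the size of the fitted log2 fold change. The fit was tested on simulated data. Alternatives used DESeq2 1.42.0, limma 3.58.1 on log2(FPKM + pseudocount) with pseudocounts of 1 and 0.1, other scaling, no filter, the 10 libraries alone, a replicate block and leaving out libraries. Transcript length was worked out from counts, FPKM and library totals. Promoters came from RefSeq's GRCr8 table, another build than the files', and were matched by gene symbol. Totals of 54072746 to 83624651 reads keep counting error small except for genes with few reads.

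The comparison and the gene lists were chosen with earlier results of these data known. Named genes were the 15 largest rises and falls with at least 100 CPM, non-overlapping groups and a symbol; up to 5 called members of each list by p and up to 3 in the opposite direction; cell type markers; the 10 genes of at least 50 CPM with the widest gap between doxorubicin libraries; and, of 10 long noncoding genes ranked by p, the first in each direction. Not all of the 75 lists are described; the plot of lists shows those with at least 10 measured genes. Some results are not reported here.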

Additional observations from a re-analysis of the deposited data

Results flagged for a closer look

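The genes named in the text formed 420 groups of 5 libraries. These genes include 10 picked for the widest gap between doxorubicin libraries and several picked for jumps between libraries. The rate of about 1 in 20 that chance alone gives under Dixon's criterion can therefore not be set against them. In 52 groups the highest or lowest library lay farther from its nearest neighbour than that criterion allows at the 95% level. The doxorubicin group held 40 of these and the PBS group 12. Doxorubicin replicate 4, the library with more reads on short transcripts, was the library concerned in 27 of them, as the highest in 22 and the lowest in 5. Doxorubicin replicate 4 was far above the rest of its group at 174 CPM for Apoe, 1421 CPM for Cdkn1a, 7.21 CPM for Cdkn2c, 46.7 CPM for Ckb, 124 CPM for Ctsk, 275 CPM for ENSRNOG00000020296, 328 CPM for ENSRNOG00000034237 and 59.7 CPM for Fas. It also stood alone above the group at 3.8 CPM for Fcrl2, 471 CPM for Gpx4, 821 CPM for Gsta1, 7.31 CPM for Il1r2, 70.8 CPM for Lyz2, 307 CPM for Mcl1, 13.2 CPM for Naaa and 134 CPM for Nppa. Its remaining high values were 41.7 CPM for Orc4, 253 CPM for Prdx6, 602 CPM for Rpl22l1, 2594 CPM for S100a6, 361 CPM for Sod3 and 152 CPM for Ticam1. The low values of this library were 34.3 CPM for Dnmt1, 7.33 CPM for ENSRNOG00000005730, 23750 CPM for Fn1, 41.7 CPM for Itgb8 and 5.21 CPM for Rab31. Doxorubicin replicate 1 was far below the rest of its group at 0.482 CPM for ENSRNOG00000042668, 10.5 CPM for Slc25a51 and 3.65 CPM for Spin1. Doxorubicin replicate 2 was far above the rest of its group at 0.519 CPM for Il1b and 9.02 CPM for Pde7b. Doxorubicin replicate 3 was far above the rest of its group at 319.6 CPM for Akr1b8, 10.9 CPM for Ccne1, 279 CPM for Cd44, 631 CPM for Cxcl1, 239 CPM for Eno2 and 14.2 CPM for Ereg, and far below it at 2455 CPM for Mmp2 and 13.2 CPM for Zfand3. PBS replicate 1 was far above the rest of its group at 2844 CPM for Col5a2, 26.4 CPM for Gatm, 16.3 CPM for Il18 and 16.4 CPM for Rrm2b, and far below it at 79.2 CPM for H2ax. PBS replicate 2 was far above the rest of its group at 49.8 CPM for Itgax, and far below it at 55.7 CPM for Mcm3. PBS replicate 3 was far above the rest of its group at 167 CPM for Agtr1a, 44.8 CPM for Ak1 and 44.8 CPM for Il1b, and far below it at 381 CPM for Fcrl2. PBS replicate 5 was far below the rest of its group at 12.4 CPM for Cav1.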

How the results depend on the processing

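The calls of doxorubicin against PBS stayed within 1.5 times of 3353 rises and 3320 falls under all other settings except a required fold change of at least 2, which left 1064 rises and 1283 falls. A fit of only these 10 libraries called 2579 and 2881, DESeq2 3608 and 3369, and limma-trend on log2(FPKM + 1) 3659 and 2973. Library totals in place of scaling factors gave 3946 rises and 2863 falls, a share of rises among the calls of 58.0% against 50.2%, and moved the median of all genes from 0.05 to 0.10. Leaving out 1 library at a time gave 2945 to 3534 rises and 3074 to 3764 falls. Without doxorubicin replicates 3 and 4 together, chosen after seeing the data, the counts were 3173 and 3493. With the replicate number as a block the counts were 3193 rises and 3386 falls. The deviations of libraries with the same number correlated at -0.02 to 0.067. The labels do not say whether such libraries share a culture, and correlations over all genes cannot settle it. Of 210 genes named, 199 passed the test and 193 of these passed in the same direction under every alternative that gave an adjusted p; DESeq2 gave none for S100a6, Rpl22l1, ENSRNOG00000020296 and ENSRNOG00000034237. The 6 exceptions were those last 3 genes, Flrt2, Nbl1 and Irak4. The replicate block lost 4 of them (Rpl22l1, Flrt2, ENSRNOG00000020296 and ENSRNOG00000034237), and the call of Irak4 was lost on the FPKM scale, at adjusted p = 0.216 and 0.221 by limma with pseudocounts of 1 and 0.1. That of Nbl1 was lost on the FPKM scale, in the fit of the 10 libraries and without doxorubicin replicates 3 and 4. With 1 library left out the log2 fold change of Rpl22l1 ranged from -0.025 to 1.35 and that of ENSRNOG00000020296 from -0.089 to 1.41, both reversed without doxorubicin replicate 4; without replicates 3 and 4 they were -0.086 and -0.11. Agtr1a, which did not pass with all libraries, passed on the FPKM scale and without doxorubicin replicates 3 and 4, Rab31 without replicate 4, and ENSRNOG00000042668 without replicate 1. List counts of 3 or fewer in 1 direction often changed by 1 or 2 genes with the library left out. The cause of these changes was not tested.

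The difference in median log2 fold change between transcripts under 1000 and over 6000 bases, 0.318, ranged from -0.0784 to 0.412 when 1 library was left out and reversed to -0.0784 without doxorubicin replicate 4. The median coefficient of variation ranged from 5.94 to 6.71% in the PBS group and from 7.51 to 16.7% in the doxorubicin group, the lowest without replicate 4. These alternatives, and those of the interaction with histidine, were chosen after seeing the data. The interaction, with 0 genes called by edgeR, had 16 by DESeq2 and 0 to 2 when 1 library was left out: 2 without doxorubicin replicate 2 and 1 without replicate 1 or 5. It called no gene under the remaining settings.

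The labels do not name the culture behind each library, and how reads were aligned and counted is not given in the sources used here. Genes at a few reads have imprecise fold changes, and a fold change in bulk RNA mixes cell numbers with RNA per cell. Doxorubicin replicate 4 differs from the other libraries by transcript length, which no setting here corrects other than leaving it out.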

Other observations

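Further gene groups, taken from the same lists and with the same rule for naming genes, moved in both directions. Integrins, the receptors by which cells hold the matrix and each other, had 9 rises and 13 falls among 23. The leukocyte chains Itgam and Itgax fell 83-fold and 27.1-fold, beside the fall of the summed leukocyte markers, whose part in it was not tested. Itgam is itself among those markers. The chain Itgb8 rose from 28.5 to 35.7 CPM with PBS to 41.7 to 62.9 CPM with doxorubicin, and Itgb3, which pairs into receptors for vitronectin, rose 1.56-fold. Among 23 cadherins, catenins and desmosome genes 9 rose and 9 fell. Epithelial cadherin, Cdh1, went from 17.1, 17.4, 19.6, 14.8 and 15.1 CPM with PBS to 0.531, 0.304, 0.882, 0.0795 and 0.591 CPM with doxorubicin, and the desmosomal cadherin Dsc3 rose 18.6-fold, from 0.451 to 3.13 CPM to 19.9 to 44.2 CPM. The groups did not overlap for either gene. Periplakin, Ppl, a linker of desmosomes, rose 3.07-fold.

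Genes that handle iron and lipid peroxides had 5 rises and 6 falls among 23, near the 21.7% and 21.5% of all genes. The transferrin receptor Tfrc, which takes up iron, fell from 75.4 to 85 CPM to 32.9 to 51.2 CPM, the metal importer Slc39a14 rose 1.6-fold, and Gpx4, the enzyme that reduces lipid peroxides, rose 1.68-fold. The log2 fold change of Gpx4 went from 0.75 to 0.42 without doxorubicin replicate 4. Glycolysis had 3 rises and 8 falls among 20. The enolases split: Eno3, the muscle form, fell by 0.70 on the log2 scale and Eno2, the neuronal form, rose by 0.59. Of 13 genes of the EGF family 4 rose and 5 fell. The ligands Areg, Ereg and Tgfa rose, Areg from 0.334 ± 0.148 to 2.21 ± 0.733 CPM and Ereg from 3.33 ± 0.434 to 8.18 ± 3.36 CPM (SD, n = 5 libraries each), while Errfi1, a feedback inhibitor of the receptor, fell from 168 to 216 CPM to 56.3 to 88.7 CPM. Transfer RNA synthetases of the cytosol, which charge transfer RNAs with amino acids, had 10 falls and 2 rises among 22, led by Yars1 and Eprs1, which fell by 0.54 and 0.48 on the log2 scale. The adrenergic and cyclic AMP list, which takes in adenylyl cyclases and phosphodiesterases, had 9 rises and 10 falls among 28. Adenylyl cyclases make cyclic AMP, and phosphodiesterases break cyclic AMP or cyclic GMP. Adcy7 fell from 74.8 to 83.4 CPM to 30.1 to 43.8 CPM. Pde2a and the cyclic GMP-specific Pde5a fell by 1.12 and 0.69 on the log2 scale, and Pde7b rose by 1.32.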
